A study of Homo sapiens with 8 samples.

Results

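The 9 genes described here encode receptors on the surface of B cells, and they were followed through 7 peak lists from chromatin immunoprecipitation and sequencing (ChIP-seq) in 697 cells, a long-standing human pre-B leukaemia cell line. The members were all peaks that overlapped a fixed window (build hg19) around MS4A1, CD22, CD72, CD40, CXCR4, CXCR5, CCR7, S1PR1 or CD36. They came to 85 of the 159806 peaks in the series and merged into 37 of 74123 regions, peaks of any list that shared at least 1 bp being joined. Each of 7 antibodies (MTA2, Mi2, HDAC2, IKAROS, AIOLOS, OCAB and OCT2) had 1 library, and 1 further library, of genomic DNA, was made without an antibody and labelled as input. The labels name no treatment for any of the 8 libraries, and the medium held 10% fetal bovine serum. No antibody had a replicate, so no difference between proteins or between genes could be set against the spread between libraries, no test was made, and each interval given covers counting error only.

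MTA2, Mi2 and HDAC2 belong to NuRD, a complex that couples nucleosome remodelling to the removal of acetyl groups from histones. IKAROS and AIOLOS are related zinc-finger factors of lymphocytes that are known to work with NuRD, OCT2 recognises octamer sites, and OCAB is a coactivator of B cells that joins octamer-bound factors. As B cells mature they gain surface receptors that tune signalling and change the receptors that steer them: pre-B cells are held in bone marrow through CXCR4, while mature B cells circulate and enter follicles. The series title ties MTA2 to B-cell development and to OCAB.

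The sequence of a peak is not printed, because no hg19 genome was at hand, and peaks were not placed in exons, introns or promoters. Promoter sequence was taken from RefSeq (GRCh38.p14) for the 6 members listed there, which had 13 start sites between them, and was searched for the octamer ATGCAAAT and for TGGGAA, a core that IKAROS proteins recognise, on both strands. No promoter of a member held ATGCAAAT in the 250 bases before the start, and 1.63% of all 35116 RefSeq promoters did. TGGGAA was found before 2 of the 3 CXCR4 starts and 1 of the 6 CD36 starts, and 20.8% of all promoters held it. Below are the promoters of CD22 and CD72, whose windows had the highest IKAROS peaks, and the CXCR4 starts with a match. Capitals mark TGGGAA or its reverse complement TTCCCA, and the promoters of CD22 and CD72 had no match. Because the builds differ, no hg19 peak was placed on these sequences.
CD22, chr19:35328937-35329186, plus strand: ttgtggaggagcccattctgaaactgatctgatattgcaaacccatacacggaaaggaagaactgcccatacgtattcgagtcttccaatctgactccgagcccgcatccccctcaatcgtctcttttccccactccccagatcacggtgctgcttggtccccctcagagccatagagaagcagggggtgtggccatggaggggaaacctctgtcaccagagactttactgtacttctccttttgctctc
CD72, chr9:35618414-35618663, minus strand: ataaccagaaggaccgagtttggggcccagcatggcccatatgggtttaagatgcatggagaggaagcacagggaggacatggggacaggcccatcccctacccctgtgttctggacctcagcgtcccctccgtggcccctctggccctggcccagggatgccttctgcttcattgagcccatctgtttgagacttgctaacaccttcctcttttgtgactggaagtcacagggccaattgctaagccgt
CXCR4, outermost start, chr2:136118150-136118399, minus strand: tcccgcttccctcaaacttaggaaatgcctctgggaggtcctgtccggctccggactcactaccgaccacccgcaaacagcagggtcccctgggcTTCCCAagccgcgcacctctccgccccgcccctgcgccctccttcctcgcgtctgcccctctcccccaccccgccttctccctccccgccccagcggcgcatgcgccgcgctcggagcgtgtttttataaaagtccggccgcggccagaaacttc
CXCR4, innermost start, chr2:136116236-136116485, minus strand: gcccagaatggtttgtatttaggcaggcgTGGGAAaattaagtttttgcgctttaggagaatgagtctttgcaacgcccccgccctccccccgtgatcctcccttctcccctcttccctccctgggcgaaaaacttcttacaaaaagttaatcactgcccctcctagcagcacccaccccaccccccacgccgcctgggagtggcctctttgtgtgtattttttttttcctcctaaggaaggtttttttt

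Library depth was between 10.9 M tags (HDAC2) and 23.4 M (IKAROS), M standing for 1e+06. Peak height is the deposited tag number of a peak, scaled to a library of 10 M tags, and it was compared within a list only. The input behind the lists, recovered from the deposited folds and tags, held 20.0 M tags for HDAC2 and 21.2 to 21.3 M for the other 6, so the HDAC2 folds over input were taken against an input of another size. The lists were not cut alike. The weakest peak kept by HDAC2 had a p-value over input of 9.5e-05, against 8.92e-10 for OCT2, 8.32e-10 for IKAROS and below 1e-10 for the other 4 lists.

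Peaks were found in 8 of the 9 windows. IKAROS and AIOLOS were present in all 8, MTA2 in 7, Mi2, HDAC2 and OCT2 in 4 each, and OCAB in 3. The lists differ in size, from 4440 peaks for OCAB and 8129 for OCT2 to 38101 for AIOLOS and 53948 for IKAROS. Counts of windows and of proteins per window were not adjusted for list size or set beside other gene windows. The windows of CD22 (19 peaks), CCR7 (17), CD72 (12) and CXCR4 (12) held most of the peaks, followed by S1PR1 with 10, MS4A1 with 6, CD40 with 5 and CXCR5 with 4. CCR7 was the only window with peaks of all 7 proteins, although in no single region, and CD22 and CD72 each had 6 of the 7. Windows of the 4 surface genes (MS4A1, CD22, CD72 and CD40) held 42 peaks in 17 regions, or 1.29 regions per 10 kb. Those of the 4 homing receptors (CXCR4, CXCR5, CCR7 and S1PR1) held 43 peaks in 20 regions, or 1.75 per 10 kb. With the empty CD36 window included, the density over all 9 windows was 1.08 regions per 10 kb. Over the spanned length of the autosomes and X the density was 0.251 regions per 10 kb. The windows were drawn around genes and the spanned length was not, so these densities are not like for like.

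**Figure D1:**
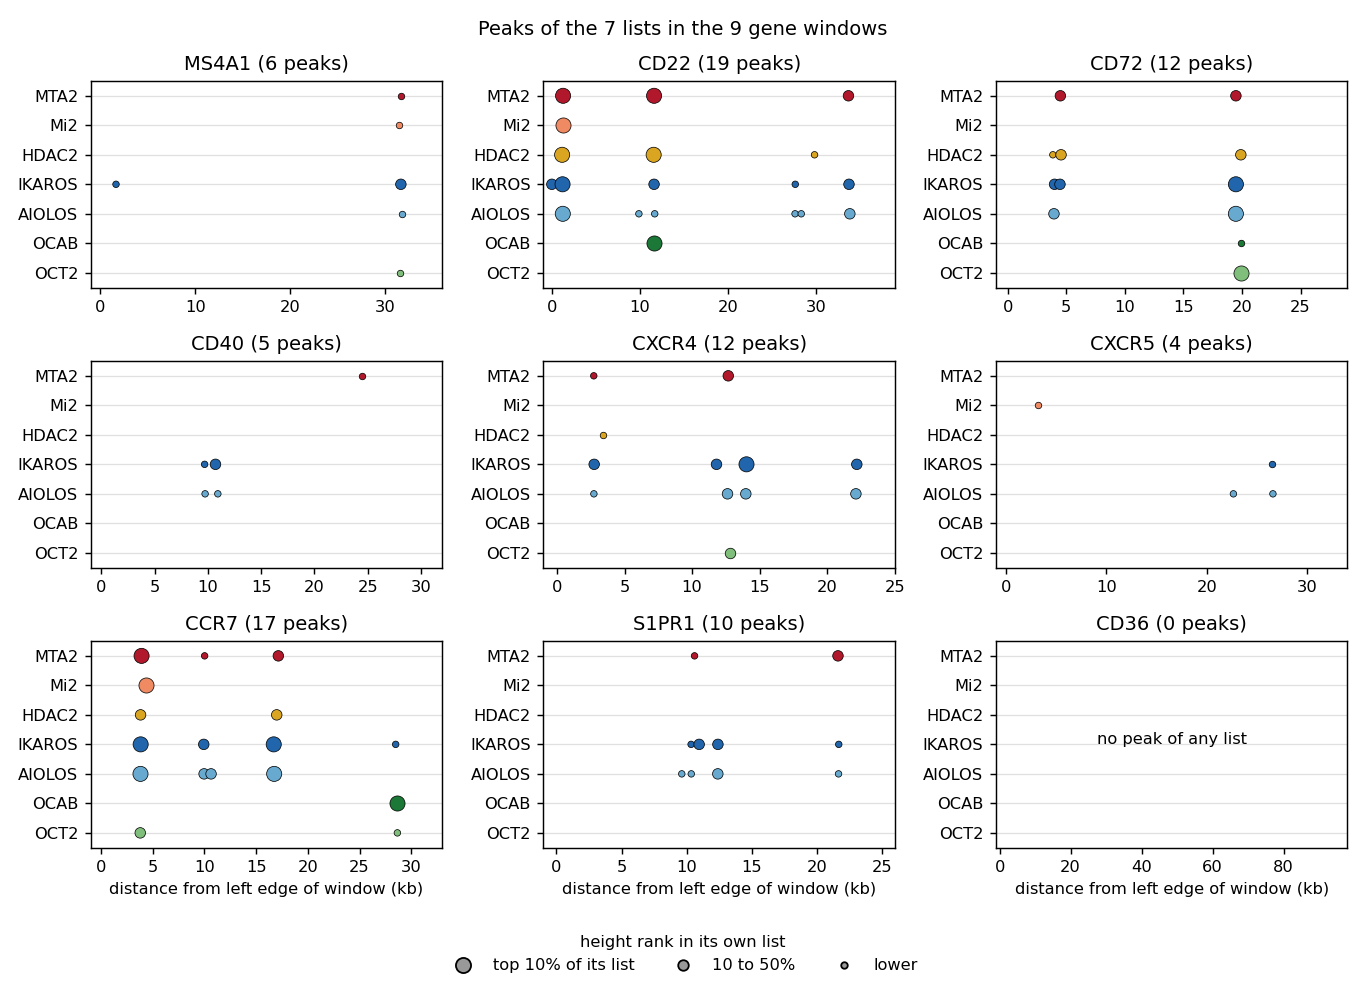
Each panel is a gene window, with the distance from its left edge in kb on the x axis and 1 row per antibody; a point is a peak, and its size gives its height rank within its own list. Large points stack in the windows of CD22, CD72 and CCR7, and the CD36 window is empty.

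CD36, a scavenger receptor for fatty acids and lipoproteins, had no peak of any list in a window of 97001 bp. The nearest peaks were weak IKAROS peaks 198769 bp to the left of the window (height 7.7) and 784749 bp to its right (height 7.27). Empty stretches of the window's length were common: 38.6% of consecutive tiles of the same width along the chromosomes held no peak. The longer peak-free stretch that reaches to these nearest peaks was not compared with the rest of the chromosomes.

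The 37 regions held the 7 proteins in shares that mostly lay near those of all regions. MTA2 was present in 14 of the 37 (37.8%), against 38.8% of all merged regions, HDAC2 in 9 (24.3%, against 21.8%) and Mi2 in 4 (10.8%, against 13.9%). IKAROS was present in 25 (67.6%, against 72.8%), OCT2 in 5 (13.5%, against 11.0%) and OCAB in 3 (8.11%, against 5.99%). AIOLOS was present in 25 of the 37 regions (67.6%) against 51.4% of all regions, the widest gap of the 7 in percentage points, and no test of it was made. IKAROS and AIOLOS lay together in 19 regions (51.4%, against 44.4%), the pair plus MTA2 in 11 (29.7%, against 25.6%), MTA2 with HDAC2 in 5 (13.5%, against 14.4%), OCAB with OCT2 in 2 (5.41%, against 2.53%), and MTA2, Mi2 and HDAC2 in 1 (2.7%, against 3.92%). Regions with 5 or more lists numbered 4 (10.8%, against 7.85%), of which 2 were at CD22 and 1 each at MS4A1 and CCR7. No region held all 7 proteins, which 0.65% of all regions did.

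**Figure D2:**
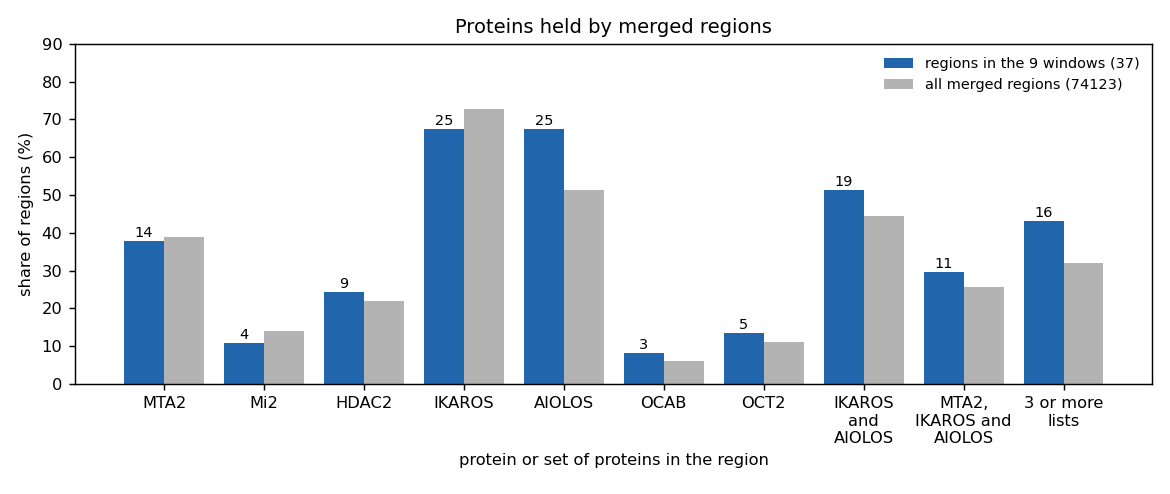
Bars give the share of regions (%) that hold each protein or set, for the 37 regions in the 9 windows (blue, left, with their number above the bar) and all 74123 merged regions (grey, right). AIOLOS shows the widest gap in percentage points among single proteins, 67.6% beside 51.4%.

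Of the 14 regions with MTA2, 12 held IKAROS (85.7%, against 77.0% of all MTA2 regions), 12 held AIOLOS (85.7%, against 70.1%), 11 held both (78.6%, against 66.0%) and 5 held HDAC2 (35.7%, against 37.1%). Mi2 was present in 2 of the 14, and in 4300 of all 28742 regions with MTA2. Of the 19 regions with IKAROS and AIOLOS, 11 held MTA2 (57.9%, against 57.6% of all such regions). Among the 6 regions with IKAROS and no AIOLOS, 1 held MTA2 (16.7%, against 15.1%). The most frequent sets were IKAROS with AIOLOS alone (7 regions; 15.3% of all regions) and those plus MTA2 alone (6 regions; 10.3% of all). Regions with 3 or more lists made up 16 of the 37 (43.2%, against 31.9%), and regions of 1 list 14 (37.8%, against 44.7%). Of these 14, AIOLOS alone accounted for 5, IKAROS alone for 4, HDAC2 for 2, Mi2 for 2 and MTA2 for 1. Of all 33111 regions of 1 list, AIOLOS accounted for 3645 (4.92% of all 74123 regions), IKAROS for 16331 (22.0%), HDAC2 for 2473 (3.34%), Mi2 for 4402 (5.94%) and MTA2 for 4233 (5.71%).

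Among the members, the CD22 window gave the highest peak for MTA2, HDAC2, IKAROS and AIOLOS, the CCR7 window for Mi2 and OCAB, and the CD72 window for OCT2. A peak need not belong to the gene that names its window. RefSeq lists MAG and FFAR1 as the neighbours of CD22, for example. The median of the 25 IKAROS peaks was 34.6, beside 20.5 over the IKAROS list, and 5 of them were in the highest 10% of that list. The 25 AIOLOS peaks had a median of 23.0, beside 23.7 over the list, and 4 of them were in the highest 10%. The 14 MTA2 peaks had a median of 23.45, beside 16.2 over the list, with 3 in the highest 10%. For HDAC2 the medians were 18.3 over 9 peaks and 14.7 over the list, and for OCT2 18.0 over 5 peaks and 14.2 over the list. The few Mi2 peaks lay apart from each other, 2 with heights of 28.1 and 29.7 and 2 with a height of 9.73, beside a list median of 14.6.

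**Figure D3:**
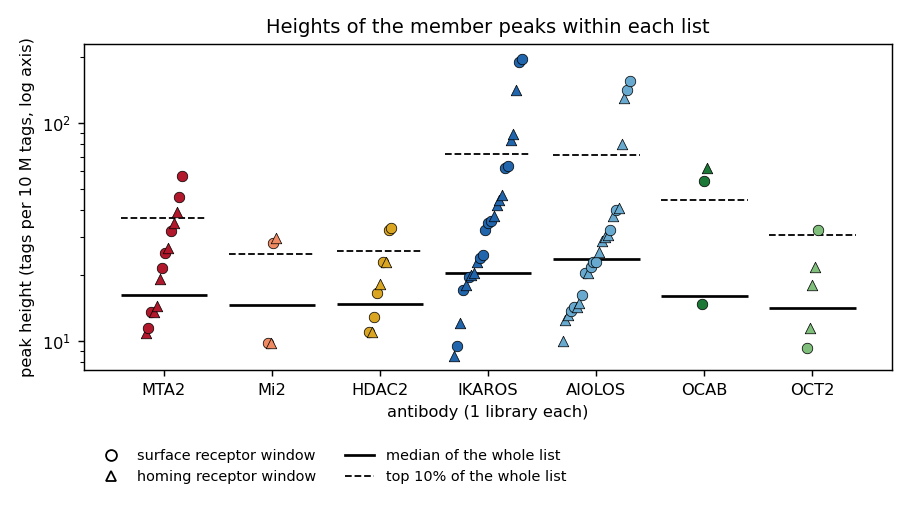
Heights of the 85 peaks on a log axis (tags per 10 M tags) by antibody. Circles are windows of the surface genes MS4A1, CD22, CD72 and CD40, and triangles are homing receptor windows. Solid and dashed lines mark the median and the start of the highest 10% of the whole list. IKAROS peaks run from 8.55 to 197.2 and AIOLOS peaks from 9.96 to 156.2.

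CD22 encodes an inhibitory receptor that binds sialic acid and dampens signals of the B-cell receptor. Its window (chromosome 19, 35810000 to 35848000) held 8 regions, the most of the 9 genes. The region at 35810972 to 35811420 held the 3 NuRD subunits with IKAROS and AIOLOS, the only region in the 9 windows with all 3 subunits. IKAROS height there was 197.2 (95% Poisson interval 180.0 to 216.0; 461 tags, 46.55-fold over input), within the highest 1.28% of its list. AIOLOS reached 156.2 (137.0 to 177.0), MTA2 57.4 (48.0 to 68.1), HDAC2 33.0 (23.1 to 45.7) and Mi2 28.1 (21.0 to 36.8). All 5 peaks were thus within the highest 6.47% of their lists, and their centres lay within 69 bp of the IKAROS centre. Neither OCAB nor OCT2 had a peak in it. The HDAC2 peak was 6.59-fold over input, and with 8-fold required in every list 0 regions held the 3 subunits. An IKAROS peak of height 63.7 lay 873 bp to its left and crossed the edge of the window.

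A second CD22 region, at 35821390 to 35821797, ranked its proteins differently. OCAB had a height of 54.1 (43.8 to 66.1), in the highest 7.12% of its list, without an OCT2 peak. MTA2 (45.5, 37.2 to 55.1) and HDAC2 (32.1, 22.4 to 44.6) were in the highest 5.72% and 3.92% of theirs. IKAROS, at 35.5 (28.3 to 44.0), was only in the highest 27.4%, and AIOLOS, at 21.8 (15.2 to 30.3), in the highest 53.6%. So between these CD22 regions the IKAROS and AIOLOS heights differed beyond their counting intervals, while the MTA2 and HDAC2 intervals overlapped. MTA2, IKAROS and AIOLOS met once more at 35843597 to 35844007, with heights of 25.4, 62.0 and 39.8. The other regions were an IKAROS and AIOLOS pair at 35837515 to 35837803 (19.7 and 13.7), 2 peaks of AIOLOS alone (23.0 and 16.2) and 1 of HDAC2 alone (11.0).

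CD72 encodes another inhibitory receptor of B cells. In its window (chromosome 9, 35600000 to 35628000) all 4 regions held 3 lists, in 2 close pairs. At 35619343 to 35619615, IKAROS had a height of 190.3 (173.0 to 209.0), AIOLOS 141.9 (124.0 to 162.0) and MTA2 32.0 (25.1 to 40.2), with the 3 centres at most 3 bp apart from the IKAROS centre. After a gap of 123 bp, the region at 35619739 to 35620057 held OCT2 at 32.2 (24.5 to 41.5), HDAC2 at 22.9 (14.8 to 33.8) and OCAB at 14.8 (9.67 to 21.7), and none of IKAROS, AIOLOS and MTA2. The exact set of HDAC2, OCAB and OCT2 was found in 17 of all 74123 regions. Its HDAC2 and OCAB peaks were 5.09-fold and 5.25-fold over input, so both fail the 8-fold setting. Exact sets counted here and below were picked from what the windows held, so their rarity was not tested. OCT2 was in the highest 8.7% of its list there, and OCAB in the highest 53.4%.

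The other CD72 pair lay at the left of the window. HDAC2 (12.8), AIOLOS (32.4) and IKAROS (34.6) shared 35603694 to 35604133, and after 189 bp IKAROS (24.8), MTA2 (21.5) and HDAC2 (16.5) shared 35604323 to 35604709. The HDAC2 peak of the first had 14 tags and the largest p-value over input of the 9 HDAC2 peaks, 1.16e-06. In RefSeq the CD72 gene overlaps TESK1, so a region in this window need not belong to CD72.

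MS4A1 encodes CD20, a surface protein of B cells and the target of rituximab. Its window (chromosome 11, 60213000 to 60248000) held 2 regions. Near its right side, at 60244235 to 60244872, 5 proteins met at low heights: IKAROS 24.0 (18.1 to 31.2), AIOLOS 14.3 (9.06 to 21.5), MTA2 11.4 (7.51 to 16.6), Mi2 9.73 (5.77 to 15.4) and OCT2 9.27 (5.4 to 14.8). All except IKAROS were below the median of their list. Folds over input were 101.79 for IKAROS, 60.85 for AIOLOS, 50.24 for MTA2, 39.41 for OCT2 and 20.67 for Mi2, the highest fold among the members for each of these 5 proteins. The deposited input signal was 0.5 tags for IKAROS and MTA2, 0.4 for AIOLOS and OCT2 and 0.9 for Mi2. All of these are below 1 tag, so the folds here rest on almost no input and are poorly fixed in size. The other region was an IKAROS peak of height 9.41 (5.9 to 14.2) at 60214518 to 60214790.

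CD40 encodes the receptor through which T cells help B cells. In its window (chromosome 20, 44737000 to 44768000) IKAROS and AIOLOS lay together at 44746553 to 44746861, with heights of 17.1 (12.2 to 23.3) and 23.0 (16.2 to 31.7), and at 44747573 to 44748058, with 32.1 (25.2 to 40.2) and 20.5 (14.1 to 28.8). In the second of these the centres were 221 bp apart, the farthest of the 19 IKAROS and AIOLOS pairs. MTA2 had a peak of its own at 44761304 to 44761554 (13.6, 9.24 to 19.3). No region here held MTA2 with another protein, and Mi2, HDAC2, OCAB and OCT2 had no peak.

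**Figure D4:**
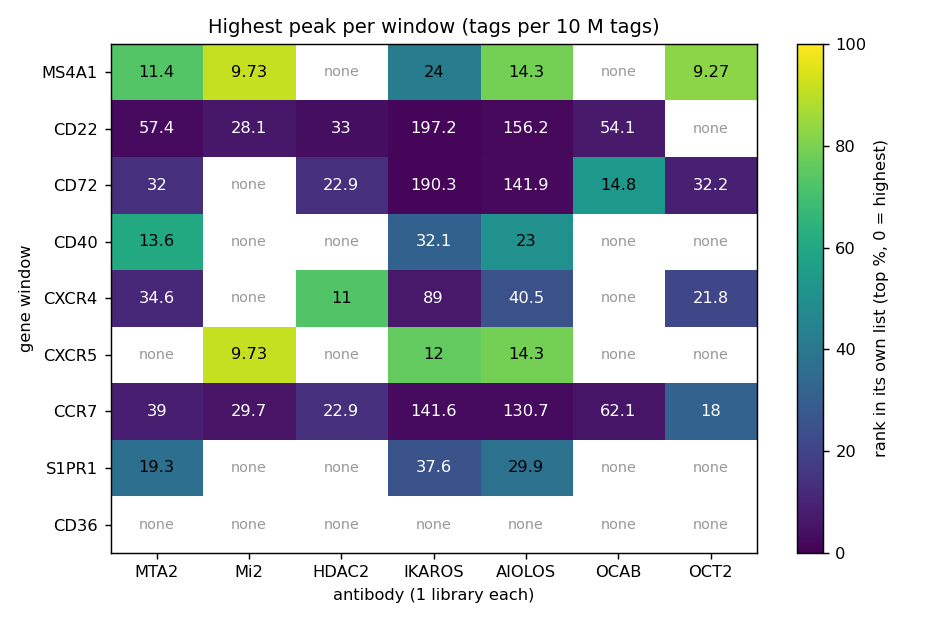
Height of the highest peak (tags per 10 M tags) of each antibody (columns) in each gene window (rows), coloured by its rank within its own list. CD22, CD72 and CCR7 are dark in most columns, while MS4A1, CD40 and CXCR5 have lower ranks or no peak.

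CCR7 encodes the receptor for CCL19 and CCL21, which leads lymphocytes into lymph nodes. Its window (chromosome 17, 38700000 to 38732000) held 6 regions and the highest homing receptor peaks of IKAROS, AIOLOS, MTA2, Mi2, HDAC2 and OCAB. At 38703647 to 38704037, 5 proteins met. IKAROS had a height of 141.6 (127.0 to 158.0), AIOLOS 130.7 (114.0 to 150.0), MTA2 39.0 (31.4 to 47.9), HDAC2 22.9 (14.8 to 33.8) and OCT2 18.0 (12.4 to 25.3). A Mi2 peak of height 29.7 (22.4 to 38.7), the highest Mi2 peak of the 9 windows, began 173 bp farther on, so Mi2 was counted in a region of its own. The IKAROS interval here lay below those at the highest CD22 and CD72 regions, whereas the 3 AIOLOS intervals overlapped.

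Further regions of the CCR7 window differed in their proteins. At 38716563 to 38717269, IKAROS (83.4) and AIOLOS (80.3) had centres 44 bp apart, while HDAC2 (18.3) and MTA2 (26.7) were centred 290 and 445 bp from IKAROS. That MTA2 peak was 4.37-fold over input, the lowest of the MTA2 members. At 38709792 to 38710139, IKAROS (41.9), AIOLOS (25.5) and MTA2 (13.6) lay together, and AIOLOS alone (28.6) followed after 367 bp. At the right of the window, 38728362 to 38728799, OCAB had a height of 62.1 (51.0 to 74.9), 65.98-fold over input and in the highest 5.5% of its list, the highest OCAB peak of the 9 windows. OCT2 in the same region had a height of 11.5 (7.12 to 17.6) and IKAROS 8.55 (5.22 to 13.2), which put them in the highest 65.8% and 90.1% of their lists. Neither AIOLOS nor a NuRD subunit had a peak in it, and the exact set of IKAROS, OCAB and OCT2 was found in 54 of all regions.

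CXCR4 encodes the receptor for CXCL12, which holds precursor B cells in the marrow. Its window (chromosome 2, 136862000 to 136886000) had 6 regions, the densest of the 9 at 2.5 per 10 kb. IKAROS peaked at 136875847 to 136876162 with a height of 89.0 (77.3 to 102.0), in the highest 6.87% of its list, together with AIOLOS at 40.5 (31.3 to 51.6) and no other protein. The region at 136874493 to 136874951 held AIOLOS at 37.3 (28.5 to 48.0), MTA2 at 34.6 (27.4 to 43.1) and OCT2 at 21.8 (15.6 to 29.7) without IKAROS, a set found in 32 of all regions. An IKAROS peak without partners, of height 46.6 (38.3 to 56.2), lay 550 bp to its left. IKAROS and AIOLOS were also found at 136883993 to 136884323 (44.1 and 30.5), and with MTA2 at 136864601 to 136864891 (20.5, 14.9 and 10.9). HDAC2 had 1 peak, alone, with 12 tags and a height of 11.0 (5.68 to 19.2).

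S1PR1 encodes the sphingosine 1-phosphate receptor that lets lymphocytes leave tissues. Its window (chromosome 1, 101692000 to 101717000) held 5 regions with peaks of IKAROS, AIOLOS and MTA2 and of no other list. The highest IKAROS peak was 37.6 (30.2 to 46.3), beside AIOLOS at 29.9 (22.1 to 39.5), at 101704272 to 101704544. MTA2 lay with both at 101702211 to 101702737 (MTA2 14.4, IKAROS 18.0, AIOLOS 20.5) and at 101713508 to 101713828 (MTA2 19.3, IKAROS 20.1, AIOLOS 13.1). In the first of these the MTA2 centre was 265 bp from that of IKAROS, and in the other 59 bp. IKAROS alone (23.1) and AIOLOS alone (12.4) made up the rest.

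CXCR5 encodes the receptor for CXCL13, which draws mature B cells into follicles. Its window (chromosome 11, 118744000 to 118777000) had the fewest peaks of those with any, and none of MTA2, HDAC2, OCAB or OCT2. IKAROS at 12.0 (7.97 to 17.3) and AIOLOS at 9.96 (5.69 to 16.2) shared 118770362 to 118770707, AIOLOS alone had a height of 14.3 (9.06 to 21.5), and Mi2 alone 9.73 (5.77 to 15.4). All 4 peaks were below the median of their lists. RefSeq lists BCL9L as overlapping CXCR5, and peaks stood just outside the window: an OCAB peak of height 31.9 lay 2283 bp to the left and an HDAC2 peak of height 19.2 lay 770 bp to the right.

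Across the genes, the highest IKAROS peak fell in the order CD22, CD72, CCR7, CXCR4, S1PR1, CD40, MS4A1 and CXCR5, with heights of 197.2, 190.3, 141.6, 89.0, 37.6, 32.1, 24.0 and 12.0. CD22 and CD72 had overlapping counting intervals, as did S1PR1 with CD40 and CD40 with MS4A1. Intervals of the other neighbours in this order did not overlap. Counting intervals leave out the spread between libraries, so separate intervals do not tell genes apart. Each height is also the highest in its window, which the interval of a single peak does not cover. For MTA2 the order was CD22 (57.4), CCR7 (39.0), CXCR4 (34.6), CD72 (32.0), S1PR1 (19.3), CD40 (13.6) and MS4A1 (11.4). The intervals of CCR7, CXCR4 and CD72 overlapped, as did those of CD72 and S1PR1 and those of S1PR1, CD40 and MS4A1. Over the 19 regions with 1 peak of each, IKAROS and AIOLOS heights ranked alike (Spearman rho 0.903). These regions share both libraries and are not independent replicates, so this is a description.

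The 5 regions with OCT2 were at MS4A1, CD72, CXCR4 and, for 2 of them, CCR7, and the 3 with OCAB at CD22, CD72 and CCR7. Of the 5 with OCT2, 3 held MTA2 (60.0%, against 73.5% of all OCT2 regions), and of the 3 with OCAB, 1 held MTA2 (33.3%, against 51.7% of all OCAB regions). The region with OCAB and MTA2 was the one in the CD22 window, which had no OCT2. Both regions with OCAB and OCT2, at CD72 and CCR7, held no MTA2 peak. At CD72 this rests on the 1 bp overlap rule. A region with an MTA2 peak of height 32.0 lay 123 bp to its left, within the 500 bp joining setting. Such counts of 1 to 5 regions cannot show a difference from the rest of the series.

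Median distances from the IKAROS centre were longer in these windows than over all regions for each of the other 6 proteins, and no test was made. They were 44 bp to AIOLOS over 19 regions (33 bp over 32910 of all regions), 59 bp to MTA2 over 12 (42 bp over all) and 69 bp to HDAC2 over 6 (64 bp over all). With 2 or 3 regions each, they were 154 bp to Mi2 (112 bp over all), 96 bp to OCAB (72 bp) and 56 bp to OCT2 (52 bp). Of the 29 gaps between neighbouring regions of a window, 4 were under 200 bp, with 2 of them at CD72 and 1 each at CCR7 and S1PR1. The share of such gaps over all regions was not counted, so whether this is usual is not known.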

How the data were processed

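ChIP-seq of 697 cells gave 1 peak list per antibody, 7 in all. The submitters' processing notes name build hg19, HOMER 4.9.1, Bowtie2 2.3.2.2 and CASAVA, in version 1.8.2 or, for HDAC2, 1.4. Per the file headers, the HDAC2 list required 4.00-fold enrichment, against input and against 10000 bp of surroundings, and a false discovery rate of 0.001. For the remaining lists no header names such settings, and none says which input a list was set against. The PCR-amplified reads (15 cycles) carry no molecular identifiers, so intervals cover counting error only.

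The deposited height is a signal, tags per 10 M tags of the library. Tag counts were deposited as whole numbers for 5 lists; for IKAROS and MTA2 the deposited tag signal is scaled to the input, and whole tags were recovered from a depth read off the steps of heights under 10. Input depth was recovered from tags over fold. For 4 of the 85 peaks the tags differed from height times depth by over 2%. The deposited fold columns are ratios over input, over the surroundings and for clonality, and the deposited p-values are Poisson p-values of HOMER. The deposited focus ratio is a fraction and the deposited peak score is HOMER's; the score was not used. All these are the authors' values per peak.

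Windows were those of the rule, and peaks overlapping one by at least 1 bp were members. Exact Poisson 95% intervals were computed from tags. Shares stand beside those of all 74123 regions, as description. Every member is named, and each region with 3 or more lists is described. The members and alternatives were chosen with earlier results of these data known. Merging was tested on simulated peaks. Tools were Python 3.11.15, numpy 2.4.6, pandas 2.3.3, scipy 1.17.1 and matplotlib 3.10.9.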

Additional observations from a re-analysis of the deposited data

How the results depend on the processing

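The 7 alternatives were each applied to 15 counts over the 9 windows, and a count was taken as moved where it changed by over 1.5 times. Keeping only the 2000 highest peaks of each list moved 11 of the 15. Regions fell to 8, and those with IKAROS, with AIOLOS and with both to 3 each. Those with MTA2, HDAC2, Mi2 and OCT2 fell to 2 each. Windows with MTA2 fell to 1, and windows with Mi2 and with OCT2 to 2 each. This setting keeps 2000 of 53948 peaks for IKAROS and 2000 of 4440 for OCAB. A fall was therefore largely fixed by the cut and does not show that these regions are fragile. HDAC2 depended most on the settings. It had 5 regions at a p-value limit of 1e-10 for every list, 3 at 8-fold over input and 17 with windows widened by 10000 bp. The median fold over input was 7.33 for the 9 HDAC2 peaks and 7.33 for the whole HDAC2 list. The 8-fold setting thus removes most of that list too, and the list was deposited with a looser p-value limit than the others. The count of regions with MTA2, Mi2 and HDAC2 was 0 at 8-fold, 0 with windows narrowed by 2000 bp and 2 with peaks within 500 bp joined. Widened windows held 9 regions with OCT2. Joining peaks by centres within 100 bp moved none of the 15. No paired analysis was possible because each antibody had 1 library.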

Other observations

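By their medians, peaks in these windows were less sharply centred than their lists for every protein except OCAB. The focus ratio, the deposited share of tags placed as around a single centre, had a median of 0.727 for the 25 IKAROS peaks, beside 0.773 over the list, and of 0.745 for the 25 AIOLOS peaks, beside 0.794. For HDAC2 the medians were 0.625 and 0.704, for Mi2 0.668 and 0.72, for MTA2 0.712 and 0.724, and for OCT2 0.744 and 0.75. The 3 OCAB peaks had a median of 0.843, beside 0.783 over the list. No test of these gaps was made.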
